A study of Homo sapiens with 6 samples.

Results

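The ubiquitin ligase genes described here are ANKIB1, HECW1, KLHL13, TRIM46 and KLHL35, 5 of the 198 genes analysed in this RNA-seq series. They were chosen as named ubiquitin ligases or ligase adaptors, with earlier results of these data known. ANKIB1, HECW1 and KLHL13 were read from a table that gives FPKM beside counts, and TRIM46 and KLHL35 from a separate table of counts, each analysed for 99 genes. FPKM are fragments per kilobase of transcript, scaled to library depth. In the deposited annotation ANKIB1, HECW1 and KLHL13 all carry the term ubiquitin-protein transferase activity. The count table has no such annotation for TRIM46 and KLHL35.

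All 6 libraries came from LNCaP-AI, a castration-resistant prostate cancer cell line derived from the androgen-responsive line LNCaP. The cells carried a short hairpin construct, sh_0092339, against the circular RNA hsa_circ_0092339 (3 libraries, called hairpin libraries here) or a control vector, labelled as the negative control (3 libraries). The series title names hsa-mir-940 and MYC as an axis on which the circular RNA acts as a sponge, and the comparison asks which transcripts change when the circular RNA is targeted. The 3 hairpin libraries carry 1 hairpin name, so loss of the circular RNA and other effects of that hairpin cannot be told apart. The circular RNA itself was not analysed here, and neither was any of 30 markers of prostate and other cell types, so neither the knockdown nor the cell type was checked. The labels do not say that replicates were separate cultures, so the p-values measure the spread between these samples only, which may be technical. The depth recovered from the files was 53127020, 80559726 and 73620788 mapped fragments in the hairpin libraries, against 58091756, 58606592 and 68990788 in the control libraries.

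Ubiquitin ligases attach the small protein ubiquitin to chosen substrates, often marking them for destruction by the proteasome. RING ligases bring the ubiquitin-carrying enzyme and the substrate together, whereas HECT and RBR (RING-between-RING) ligases first take ubiquitin onto a cysteine of their own. The largest RING assemblies are built on cullins, and in those built on CUL3 a BTB-Kelch protein is the adaptor that picks the substrate. ANKIB1 is an RBR ligase with ankyrin repeats, HECW1 a HECT ligase of the NEDD4 family best known from neurons, and KLHL13 a BTB-Kelch adaptor of CUL3 known for its role with KLHL9 in mitosis. KLHL35 belongs to the same BTB-Kelch family. TRIM46 is a tripartite motif protein with a RING finger, known mainly for organising microtubules in the axon.

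ANKIB1 and TRIM46 each lie head to head with another analysed gene, and their promoters are printed because each pair could be read against the other in the same libraries. The windows are 300 bases long, mostly upstream of the gene's start (RefSeq, GRCh38.p14, plus strand for both). They lie at chr7:92245724-92246023 for ANKIB1 and at chr1:155173599-155173898 for TRIM46. Capitals mark matches, on either strand, to the E-box CACGTG, the ETS core CCGGAAG, the CCAAT box CCAAT, the GC box GGGCGG and the TATA box TATAAA. No match overlaps another.
ANKIB1 promoter: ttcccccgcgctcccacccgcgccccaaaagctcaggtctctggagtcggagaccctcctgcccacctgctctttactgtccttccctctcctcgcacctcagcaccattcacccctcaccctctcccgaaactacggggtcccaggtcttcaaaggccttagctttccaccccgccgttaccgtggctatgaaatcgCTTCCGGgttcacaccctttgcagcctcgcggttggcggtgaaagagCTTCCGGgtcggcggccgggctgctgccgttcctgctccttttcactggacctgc
TRIM46 promoter: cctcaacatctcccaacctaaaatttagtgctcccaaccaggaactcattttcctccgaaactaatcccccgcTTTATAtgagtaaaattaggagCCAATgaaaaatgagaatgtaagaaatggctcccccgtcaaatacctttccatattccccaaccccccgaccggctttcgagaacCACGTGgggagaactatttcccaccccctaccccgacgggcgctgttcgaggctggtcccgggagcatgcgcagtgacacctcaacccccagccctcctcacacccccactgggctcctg
The ANKIB1 window holds 2 ETS cores, starting 52 and 5 bases before the start, and none of the other 4 motifs. ETS cores are in 10.3% of the 35116 promoters of the same length. The window shares 159 bases, both ETS cores included, with a promoter window of KRIT1 on the other strand. With another KRIT1 window, at chr7:92246051-92246350, the ANKIB1 window shares 0 bases. This TRIM46 window, 1 of 3 listed for the gene, holds an E-box 70 bases before the start (7.3% of all promoters have one). It also has a CCAAT box 155 bases before the start (34.6%). A match to the TATA box, read on the other strand, lies 177 bases before the start (11.5%). The TRIM46 distances count from the RefSeq start of this window. That start lies downstream of the GENCODE 29 start given below, 155173787, and the E-box, at 155173779 to 155173784, ends just before the latter. This TRIM46 window shares no base with the window of KRTCAP2. A match is a description of letters and was not tested for binding.

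Because the series names hsa-mir-940, the 3' UTRs of the 5 genes were searched for CCTGCCT, the complement of its seed. The mature sequence (RefSeq, GRCh38.p14, chromosome 16) is shown with the seed, bases 2 to 8, in capitals, followed by each match with the 7 letters in capitals.
hsa-miR-940: aAGGCAGGgcccccgcucccc
TRIM46 site: tctgccctatgaCCTGCCTttggcatgtta
KLHL35 site: gctgcagtctgcCCTGCCTggagatggaat
TRIM46 and KLHL35 had 1 match each, at chr1:155184446-155184452 on the plus strand and at chr11:75422411-75422417 on the minus strand of GRCh38. ANKIB1, HECW1 and KLHL13 had 0 in the transcript searched. The 7 letters occur in 24.7% of 18821 human 3' UTRs taken from GENCODE 29 with 1 transcript a gene. The sequence alone does not show regulation.

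None of the 5 genes passed the test between hairpin and control libraries. The test was edgeR's quasi-likelihood test on counts, with Benjamini-Hochberg adjustment over all tested genes of a table, and a gene is called at an adjusted p under 0.05. Among the 84 tested genes of the FPKM table, 21 were called (25.0%), 13 of them higher (15.5%) and 8 lower (9.52%). Among the 31 of the count table, 4 were called (12.9%), with 1 higher (3.23%) and 3 lower (9.68%). ANKIB1 alone of the 5 had an unadjusted p under 0.05 by edgeR, a level that 34 genes with FPKM (40.5%) and 6 of the others (19.4%) reached. DESeq2 called 1 of the 5, ANKIB1, where it called 40.5% of the tested genes with FPKM and 12.9% of the others. By limma-voom 0 of the 5 were called, against 25.0% of the genes with FPKM and 6.45% of the others. By limma on FPKM 0 of the 2 with at least 1 FPKM were called, against 31.4% of 70 genes. The FPKM table had 9 calls without hairpin library 2 and 13 without control library 2. The count table had 0 without hairpin library 3 or control library 2, 1 without hairpin library 1 and 2 without control library 1. With upper-quartile scaling the split was 8 higher and 10 lower for genes with FPKM, and 0 higher and 1 lower for the others. DESeq2's size factors in edgeR gave 1 higher and 1 lower in the count table. The median log2 fold change over all tested genes was 0.0071 for genes with FPKM and -0.02 for the others. In RNA from whole cultures, fewer cells that express a gene and less RNA per cell cannot be told apart.

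**Figure D1:**
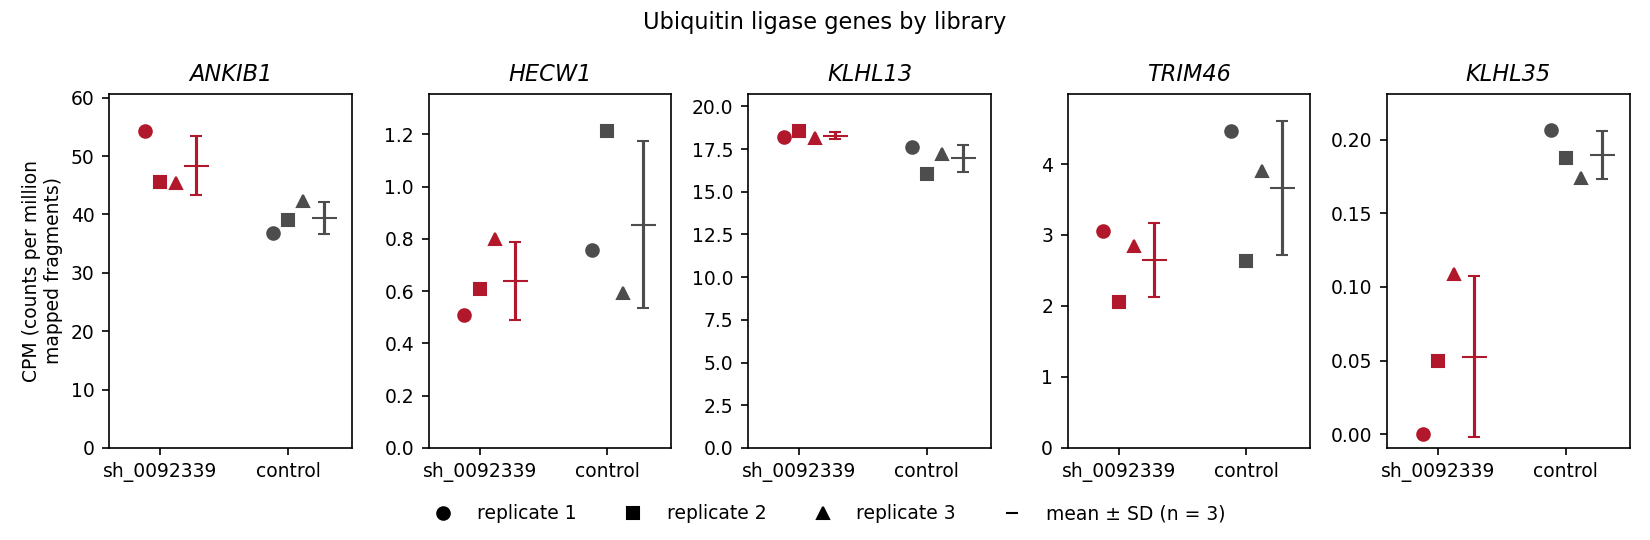
Level of each of the 5 genes in CPM (counts scaled to 1000000 mapped fragments) on axes of their own, with hairpin libraries in red on the left and control libraries in grey on the right; symbols are the replicates and bars the mean ± SD of 3 libraries. The groups are apart for ANKIB1 and KLHL13, and overlap for HECW1 and TRIM46. Those of KLHL35 are apart too, but the low-count filter, about 0.157 CPM in 3 libraries, fixed that gap. Over all tested genes the groups are apart for 47.6% of those with FPKM and 29.0% of the others.

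ANKIB1, the RBR ligase, was higher in all 3 hairpin libraries than in any control library. Its level was 54.2, 45.6 and 45.3 CPM in the hairpin libraries (2881, 3676 and 3336 counts), against 36.8, 39.1 and 42.4 CPM in the control libraries (2137, 2289 and 2924 counts). The first hairpin library was the highest, and the other two lay close above the highest control. In the authors' FPKM it averaged 6.54 ± 0.683 in hairpin and 5.33 ± 0.384 in control libraries (SD, n = 3 each). The log2 fold change, hairpin over control, was 0.29 ± 0.0961 (SE), with a 95% interval from 0.06 to 0.53, a fold of 1.23 (1.04 to 1.44). Its unadjusted p was 0.0204 and its adjusted p 0.0633 by edgeR, the 27th smallest p of the 84 genes.

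The side of the threshold on which ANKIB1 fell depended on the tool, while the direction did not. By DESeq2 the log2 fold change was 0.28 with an adjusted p of 0.00915, and DESeq2 called 34 genes of the table in all. Under the other 18 alternatives the adjusted p ran from 0.0506 to 0.177, by edgeR, limma-voom or limma. The log2 fold change was 0.20 without hairpin library 1 and 0.36 without control library 3, the ends of the range over all alternatives.

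**Figure D2:**
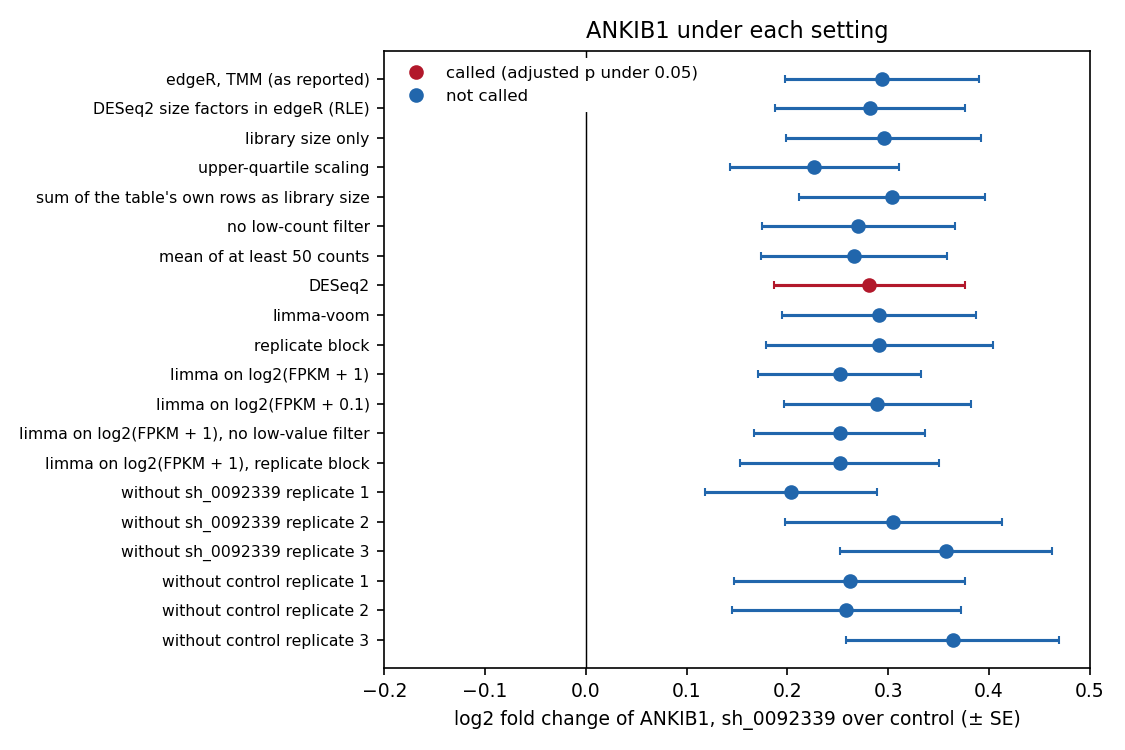
Log2 fold change of ANKIB1, hairpin over control, with its standard error (horizontal axis) under the reported fit and each alternative (rows). All 20 values lie between 0.20 and 0.36, and only the one by DESeq2, in red, is called at an adjusted p under 0.05.

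KLHL13, the CUL3 adaptor, was also higher in every hairpin library, by a smaller margin. It had 18.2, 18.5 and 18.2 CPM in the hairpin libraries (966, 1493 and 1337 counts), against 17.6, 16.1 and 17.2 CPM in the control libraries (1023, 941 and 1187 counts). The hairpin libraries were alike, with a coefficient of variation of 1.14%, where counting error alone gives about 2.81%. The control libraries varied by 4.75%, against 3.09% from counting. Its FPKM was 2.61 ± 0.0302 in hairpin and 2.42 ± 0.116 in control libraries (SD, n = 3 each). The log2 fold change was 0.11 ± 0.0795 (SE), with a 95% interval from -0.08 to 0.30 (edgeR, adjusted p = 0.336). The interval holds folds from 0.943 to 1.23, and the log2 fold change was 0.04 with upper-quartile scaling or without control library 2.

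HECW1, the HECT ligase, had low counts, and its groups overlapped. Its counts were 27, 49 and 59 in the hairpin libraries, against 44, 71 and 41 in the control libraries. This is 0.508, 0.608 and 0.801 CPM in hairpin libraries, against 0.757, 1.21 and 0.594 CPM in control libraries. The groups overlap, and control library 2 was the highest of all. In FPKM it averaged 0.0450 ± 0.0111 in hairpin and 0.0599 ± 0.0225 in control libraries (SD, n = 3 each). The log2 fold change was -0.41 ± 0.371 (SE), with a 95% interval from -1.30 to 0.49 (edgeR, adjusted p = 0.422), and was -0.09 without control library 2. The coefficient of variation was 23.3% in hairpin and 37.4% in control libraries, where counting error alone gives about 14.9% in hairpin and 13.9% in control libraries.

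Among the 3 genes with FPKM, ANKIB1 was the highest and HECW1 the lowest in all 6 libraries. Averaged over the 6 libraries, ANKIB1 had 5.94, KLHL13 2.52 and HECW1 0.0524 FPKM, ranks 42, 60 and 82 of the 99 analysed genes. Neighbours in this order differed by far more than their spread, in both groups. The order was thus the same in hairpin and control libraries.

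TRIM46, the RING protein of axonal microtubules, had 162, 166 and 209 counts in the hairpin libraries, against 259, 154 and 269 in the control libraries. In CPM this is 3.05, 2.06 and 2.84 in hairpin libraries, against 4.46, 2.63 and 3.90 in control libraries. Control library 2 lay below hairpin libraries 1 and 3, so the groups overlap. The mean was 2.65 ± 0.521 CPM in hairpin and 3.66 ± 0.938 CPM in control libraries (SD, n = 3 each). The log2 fold change was -0.48 ± 0.243 (SE), with a 95% interval from -1.04 to 0.08 and an adjusted p of 0.316 by edgeR. It was -0.28 without control library 1 and -0.29 without hairpin library 2. The interval still holds folds from 0.485 to 1.05, so a loss of up to that size could not be told from no change with these libraries.

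KLHL35, the other BTB-Kelch gene, was nearly undetected. It had 0, 4 and 8 counts in the hairpin libraries, against 12, 11 and 12 in the control libraries. In CPM this is 0, 0.0497 and 0.109 in hairpin libraries, against 0.207, 0.188 and 0.174 in control libraries, and the groups do not overlap. In the first hairpin library, a count of 0 allows up to 0.0565 CPM (3 counts, for counting error only). The log2 fold change was -1.71 ± 1.02 (SE), with a 95% interval from -4.06 to 0.63 (edgeR, adjusted p = 0.37), and was -2.61 without hairpin library 3. KLHL35 passed the low-count filter, about 0.157 CPM in 3 libraries, only through the control libraries, and no hairpin library reached it, so that the filter itself fixed the gap between the groups. The control libraries varied by 8.65%, less than the 29.3% that counting alone gives at this level.

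CPM of the groups did not overlap for ANKIB1 and KLHL13 (both higher), and overlapped for HECW1 and TRIM46. KLHL35 is not counted, because the low-count filter fixed its gap. The groups were also apart for 47.6% of the tested genes of the FPKM table (26.2% higher and 21.4% lower) and for 29.0% of those of the count table (12.9% higher and 16.1% lower). Groups that are apart were thus common in both tables, and the gaps of ANKIB1 and KLHL13 are no exception there.

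**Figure D3:**
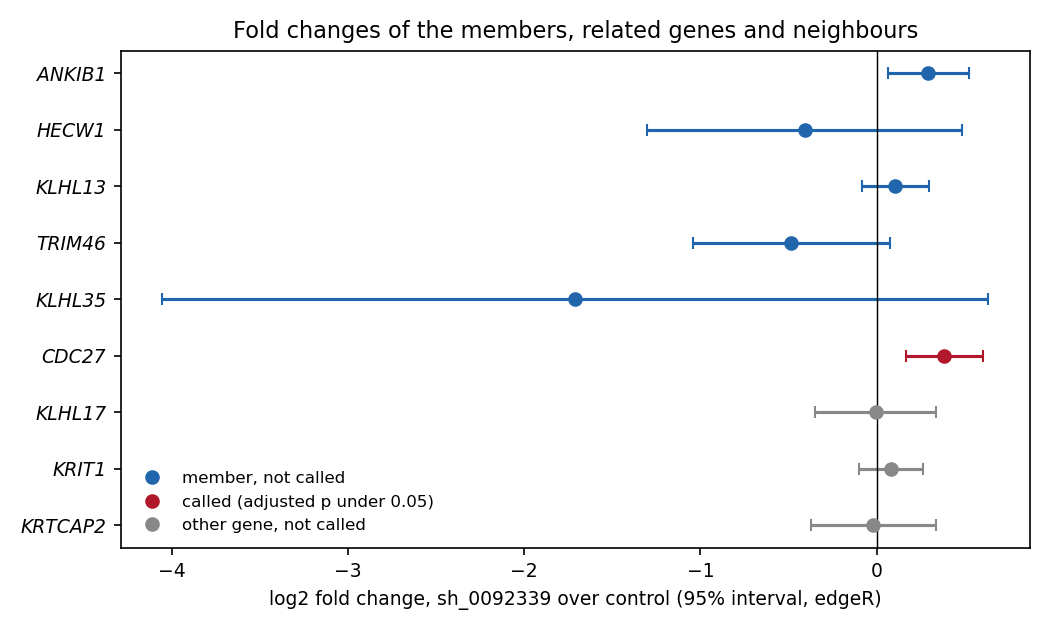
Log2 fold change, hairpin over control, with its 95% interval by edgeR (horizontal axis) for the 5 genes (blue), for the related genes CDC27 and KLHL17 and for the divergent neighbours KRIT1 and KRTCAP2. Only CDC27, in red, is called, and the interval is widest for KLHL35.

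Of the other ubiquitin-system genes in a list of ligases, cullin adaptors, conjugating enzymes, deubiquitinases and proteasome subunits, 2 had a row in the analysed tables. Of these 2, 1 rose and 1 was not called. CDC27, a scaffold subunit of the anaphase-promoting complex, the ligase that ends mitosis, rose to 134.8, 121.8 and 121.7 CPM in the hairpin libraries, against 98.1, 86.4 and 105 CPM in the control libraries. All hairpin libraries were above all controls. Its log2 fold change was 0.38 ± 0.0901 (SE; edgeR, adjusted p = 0.0239). The call of CDC27 was lost, with adjusted p of 0.0771, 0.0607, 0.0563 and 0.0576, without hairpin library 1, hairpin library 2, control library 1 or control library 2. KLHL17, a BTB-Kelch protein that binds actin, had 22.5 ± 1.32 CPM in hairpin and 22.7 ± 3.45 CPM in control libraries (SD, n = 3 each). Its log2 fold change was -0.0060, with a 95% interval from -0.35 to 0.34 (edgeR, adjusted p = 0.969), and its sign changed with the scaling. The deposited annotation of the FPKM table names ubiquitin for 7 genes, of which ANKIB1, HECW1 and KLHL13 are 3. Of the other 4, CDC27 was called higher and CFTR, CASP10 and SLC25A5 were not called (edgeR, adjusted p = 0.348, 0.353 and 0.055). Over all tested genes of the FPKM table, 25.0% were called in either direction.

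ANKIB1 lies on chromosome 7 of GRCh38 (92245974 to 92401383, plus strand), and its first bases overlap those of KRIT1 on the minus strand. The starts of the pair are 192 bases apart. KRIT1, which acts in endothelial junctions and whose loss causes cerebral cavernous malformations, had 43.9, 44.7 and 42.0 CPM in the hairpin libraries, against 38.2, 40.6 and 44.6 CPM in the control libraries. These groups overlap, and the log2 fold change was 0.08 ± 0.0757 (SE; edgeR, adjusted p = 0.434). Within a library, the ratio of ANKIB1 to KRIT1 counts does not depend on scaling. It was 1.24, 1.02 and 1.08 in the hairpin libraries, against 0.962, 0.963 and 0.951 in the control libraries. The 3 control ratios were nearly equal, and every hairpin ratio was above them (exact two-sided permutation p = 0.1, the smallest possible with 3 against 3). The mean log2 ratio was 0.21 higher in the hairpin libraries, and 0.13 higher without hairpin library 1. The ratio was computed after the values were seen. ANKIB1 alone was already apart in CPM, as were 47.6% of the tested genes with FPKM, so the ratio is no separate support. How often ratios of other gene pairs are apart was not computed.

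**Figure D4:**
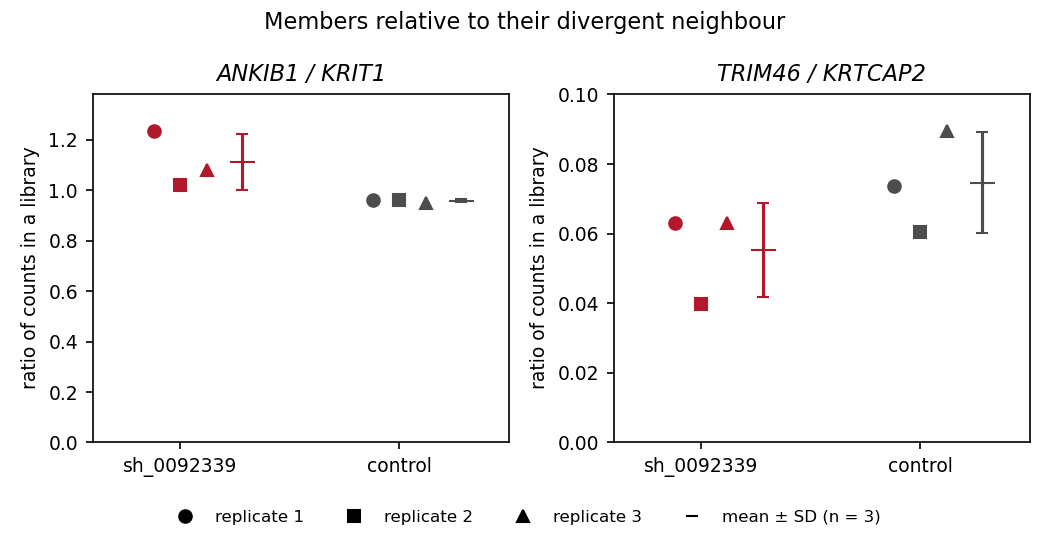
Counts of ANKIB1 divided by those of KRIT1 (left) and of TRIM46 divided by those of KRTCAP2 (right) in each library; symbols are the replicates and bars the mean ± SD of 3 libraries, hairpin in red and control in grey. The ANKIB1 ratio lies at 1.02 or above in the hairpin libraries and at 0.963 or below in the controls, while the TRIM46 ratios overlap.

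Further genes lie within 1 megabase of ANKIB1. CYP51A1, the sterol demethylase of cholesterol synthesis, rose, with 137 ± 14.1 CPM in hairpin and 110 ± 1.71 CPM in control libraries (SD, n = 3 each; edgeR, log2 fold change 0.32, adjusted p = 0.027). It was not called with upper-quartile scaling (adjusted p = 0.0756), by limma on FPKM with no low-value filter (0.0544), or without any 1 of hairpin libraries 1 and 3 and control libraries 1 and 2 (0.0771, 0.0769, 0.0575 and 0.0993). VPS50, a subunit of an endosomal recycling complex, had 26.7 ± 2.24 CPM in hairpin and 22.2 ± 1.97 CPM in control libraries, with overlapping groups. Its log2 fold change was 0.26 (edgeR, adjusted p = 0.0743), and DESeq2 called it (0.0463).

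TRIM46 lies on chromosome 1 (155173787 to 155184971 in GENCODE 29 on GRCh38, plus strand), with its start 312 bases from that of KRTCAP2 on the minus strand. KRTCAP2, a subunit of the oligosaccharyltransferase that adds sugars to nascent proteins, had 48.4 ± 3.43 CPM in hairpin and 49.1 ± 9.79 CPM in control libraries (SD, n = 3 each). Its log2 fold change was -0.02 (edgeR, adjusted p = 0.969), and its sign changed with the scaling. The ratio of TRIM46 to KRTCAP2 counts was 0.0630, 0.0397 and 0.0630 in the hairpin libraries, against 0.0738, 0.0606 and 0.0895 in the control libraries. The groups overlap (exact two-sided permutation p = 0.3), and without hairpin library 2 the log2 difference was -0.23 in place of -0.45.

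HECW1 lies elsewhere on chromosome 7 (43112629 to 43562052, plus strand), KLHL13 on chromosome X (117897813 to 118116865, minus strand) and KLHL35 on chromosome 11 (75422394 to 75430629, minus strand, GENCODE 29). All 5 genes are annotated as protein-coding. The span of HECW1 overlaps 8 annotated genes on both strands, most of them small non-coding RNAs or antisense genes. ANKIB1 overlaps KRIT1, and TRIM46 overlaps 1 gene, on the other strand. KLHL13 overlaps 1 annotated RNA gene, RF00019, on its own strand. The sources used here do not state whether counting used strand, so reads in overlaps with the other strand cannot be assigned with certainty. Reads in overlaps on the same strand could not be separated by strand in any case. Of 43 transcripts annotated for the 5 genes, 0 were in the analysed transcript tables.

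The genes whose profiles over the 6 libraries were most like each of the 5 were found from the root mean square difference of log2 CPM after centring each gene on its mean. For ANKIB1 they were UPF1 at 0.058, C1orf112 at 0.086 and CDC27 at 0.098, where the median over 83 candidates was 0.24. UPF1, the helicase of nonsense-mediated decay, and CDC27 were called higher (edgeR, adjusted p = 0.0239 for both), and C1orf112 was not (0.186). For KLHL13 they were FUCA2 at 0.058, RPAP3 at 0.064 and KRIT1 at 0.083 (median 0.187), and none of these was called. For HECW1 the distances of those named were larger, with ACSM3 at 0.305 and GCFC2 at 0.313 (median 0.448), of which GCFC2 was called lower (edgeR, adjusted p = 0.0375). Among 30 candidates of the count table, PXK at 0.324, MAST2 at 0.352 and KRTCAP2 at 0.354 were nearest to TRIM46 (median 0.467). For KLHL35 they were LRRC26 at 0.832, ATP6V1E2 at 1.296 and ENSG00000250568 at 1.301 (median 1.596), and the few counts of KLHL35 make these distances imprecise. ATP6V1E2 and ENSG00000250568 were called lower (edgeR, adjusted p = 0.021 and 0.0286). A flat profile is near to other flat profiles by this measure, and likeness over 6 libraries says nothing of shared control. The difference between hairpin and control libraries is part of the distance, so a near gene tends to change in the same direction. The calls of near genes are thus no support for a change of the 5 genes. For KLHL35, the gap that enters its distances was also fixed by the low-count filter.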

How the data were processed

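Per the labels' protocols, RNA was extracted with Trizol and sequenced on standard Illumina libraries. Trimming, alignment and assembly tools in the submitters' processing notes are cutadapt, HISAT2 and StringTie (versions not given in the sources used here). They name the build hg18, but all 99 genes of the FPKM table overlap the same gene of GENCODE 29 on GRCh38. The authors made FPKM beside counts for one gene table and counts alone for another, per the file headers. The deposited isoform lengths, a value of another kind, served only to recover the depth.

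The mapped fragments of each library were recovered from the isoform table as the median of count divided by length and FPKM over isoforms with at least 1000 counts. They served as library sizes and gave CPM, in place of the sum of 99 rows. Counts were tested with edgeR 4.0.16 in R 4.3.3 (quasi-likelihood, TMM, filterByExpr by group, group only) in each gene table alone. The standard error came from the fold change and the quasi-likelihood F. DESeq2 1.42.0 (size factors of its own, local dispersion fit), limma 3.58.1 on log2(FPKM + 1), limma-voom, other scalings and filters, the replicate number as a block, and fits with 1 library left out were alternatives. Symbols came from a table of gene names that holds 98 of 99 identifiers of the count table, of which 91 are in GENCODE 29. Replicates of a group differed by far more than counting noise (chi-square of 26.4 to 69.9 per gene), so none was taken for a repeat deposit.

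Named were the 5 genes, genes of the ubiquitin list, genes within 1 megabase in the same table, and the 3 nearest profiles of each gene (0.5 counts added), of which one near HECW1 is not reported here. The members and lists were chosen with earlier results of these data known.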

Additional observations from a re-analysis of the deposited data

How the results depend on the processing

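No alternative turned the direction of ANKIB1, KLHL13, HECW1 or TRIM46. The direction of KLHL35 is not counted, because the low-count filter fixed its gap. DESeq2 on ANKIB1 (log2 fold change 0.28) was the only alternative to change a call among the 5 genes. Leaving out 1 library, the log2 fold change ran from 0.20 to 0.36 for ANKIB1, 0.04 to 0.15 for KLHL13, -0.60 to -0.09 for HECW1, -0.59 to -0.28 for TRIM46 and -2.61 to -1.26 for KLHL35. HECW1 and KLHL35 had no value with a mean of at least 50 counts, and HECW1 none on FPKM of at least 1 and -0.02 on log2(FPKM + 1) with no filter, a scale that shrinks low genes. DESeq2 called 34 genes of the FPKM table, and edgeR 9 to 22 with 1 library left out. Of the count table, 2 genes were called with DESeq2's size factors in edgeR, library size only, limma-voom or TMM factors of the FPKM table (added after seeing the data), 1 with upper-quartile scaling, 0 with no low-count filter (6 at an unadjusted p under 0.05 by edgeR), and 0 to 3 with 1 library left out (5 at an unadjusted p under 0.05 in both cases of 0). Values near 0 changed sign: with DESeq2's size factors in edgeR, no filter, at least 50 counts and DESeq2, the log2 fold change was 0.044, 0.084, 0.017 and 0.045 for KLHL17 and 0.037, 0.078, 0.0044 and 0.037 for KRTCAP2. With 1 library left out KLHL17 ran from -0.057 to 0.143 and KRTCAP2 from -0.039 to 0.171. The cause of these changes was not tested. With the replicate number as a block 19 genes of the FPKM table and 3 of the count table were called, and ANKIB1 had an adjusted p of 0.134 by edgeR; libraries of the same number had correlations of their deviations of -0.189, 0.14 and -0.194 over 84 genes of the FPKM table and of -0.31, 0.457 and 0.124 over 31 genes of the count table, so not every pair deviated together and they are taken to share only a number. KLHL35, with at most 12 counts in a library, is limited by depth.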
